A study of Mus musculus with 8 samples.

Results

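The alternative pathway of complement was examined through 6 genes, chosen by symbol: the central component C3, the protease precursor Cfb, the positive regulator Cfp, the inactivating protease Cfi, and the anaphylatoxin receptors C3ar1 and C5ar1. All 6 were on the array, on 7 of its 43681 probe sets, among 27200 named genes. C3ar1 had 2 probe sets and each of the others had 1. RefSeq places C3 (NCBI Gene 12266) and Cfb (14962) on chromosome 17, Cfp (18636) on X, Cfi (12630) on 3, C3ar1 (12267) on 6 and C5ar1 (12273) on 7. The samples were whole lungs of BALB/c mice that all carried an IL-1b transgene, called lung-specific by the study and switched on by doxycycline. In 3 arrays the mice had been given water and in 5 doxycycline (dox) for 7 days, at about 12 weeks of age per the labels, although the header of a deposited table gives 5 weeks. The sources used here do not name the promoter that drives the transgene. Non-transgenic mice on dox were not analysed here, so the drug and the cytokine cannot be told apart. The labels number the samples as replicates without saying whether each is a separate animal or a pool, so p-values reflect the spread of these samples only.

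Complement is a cascade of plasma and tissue proteins that coats particles with fragments of C3 and calls in phagocytes. In its alternative branch, C3 that hydrolyses slowly or that has already been cleaved binds factor B, which factor D cuts to form a C3-cleaving convertase. Properdin holds this convertase together, and factor I, with its cofactors, breaks the bound C3 fragment down. The small fragments C3a and C5a act on G protein-coupled receptors of myeloid and other cells. The liver makes most of the C3 in plasma, while lung epithelium and macrophages also make complement components.

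The lung identity of the samples was visible in both groups. The surfactant gene Sftpc ran from 25663 to 26107 intensity units in water and from 25427 to 25868 in dox, and the club cell gene Scgb1a1 from 18337 to 19257 and from 19079 to 19692. Hepatocyte markers were dim throughout: the 7 genes summed to 116 to 119 units in water and 115 to 125 in dox, 0 of the 7 passed the limma test in either direction (1 had an unadjusted p under 0.05: Ahsg, log2 change 0.28), the brightest, Apoa2, averaged 29.8 and 27.8 units, and the dominant liver transcript Alb averaged 15.2 and 14.5 units, close to the lower quartile of each array (13.9 to 14.5 units). Intensities are linear RMA values, and signal at that quartile is not shown to exceed background. Array medians lay between 40.8 and 41.9 units, arrays of 1 group correlated with r of at least 0.994 over probe sets, and 0 pairs of arrays held identical values.

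Promoter sequences of RefSeq (build GRCm38.p6) were matched to 4 of the 6 genes: C3, Cfp, C3ar1 and C5ar1. The 250 bases before the start site are printed for C3, the source of C3a, and for both receptors, because these genes encode a ligand precursor and the anaphylatoxin receptors. Capitals mark matches, on either strand, to TTNNGCAA (C/EBP), GAAANNGAA (interferon response) or TATAAA, the box near the start of many promoters.
C3, chr17:57228137-57228386, strand -: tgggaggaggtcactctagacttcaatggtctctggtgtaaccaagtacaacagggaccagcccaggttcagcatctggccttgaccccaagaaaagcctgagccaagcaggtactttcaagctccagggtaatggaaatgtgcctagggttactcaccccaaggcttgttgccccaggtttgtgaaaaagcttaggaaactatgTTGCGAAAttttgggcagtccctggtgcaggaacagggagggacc
C3ar1, chr6:122856158-122856407, strand -: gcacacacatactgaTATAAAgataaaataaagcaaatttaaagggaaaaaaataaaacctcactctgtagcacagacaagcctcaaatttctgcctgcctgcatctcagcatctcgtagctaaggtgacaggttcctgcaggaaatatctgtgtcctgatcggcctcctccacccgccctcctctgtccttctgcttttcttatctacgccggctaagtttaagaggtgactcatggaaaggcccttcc
C5ar1, chr7:16259339-16259588, strand -: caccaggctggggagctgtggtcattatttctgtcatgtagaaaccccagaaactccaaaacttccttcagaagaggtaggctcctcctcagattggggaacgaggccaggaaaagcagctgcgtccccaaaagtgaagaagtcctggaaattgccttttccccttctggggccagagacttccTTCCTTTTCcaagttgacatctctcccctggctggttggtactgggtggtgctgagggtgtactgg
The C3 promoter held 1 C/EBP match at -45 to -38 from the start, a pattern found in 9.56% of 32851 promoters. C3ar1 held TATAAA at -235 to -230, which 12.4% of promoters contain. In C5ar1 an interferon response match lay at -66 to -58, against 7.13% of all promoters. The letters GGGANTTTC (NF-kB; 0.941% of promoters) and TTCNNNGAA (STAT; 7.02%) were found in 0 of the 4 windows, and Cfp had 0 matches to any of the 5 patterns. A match describes these letters only, and none of the marked stretches overlapped another.

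Of the 6 genes, 5 rose in induced lungs and 0 fell, while 3.48% of all 27200 genes rose and 1.52% fell at an adjusted p of 0.05 (limma, dox against water, Benjamini-Hochberg over all genes). The 6 were chosen with earlier results of these data known, so these shares are a description and not a test. The median log2 change (dox minus water) of the 6 was 0.94, and that of all genes was -0.03. The sizes differed widely, from 4.19-fold for Cfb to 1.29-fold for Cfi, the gene that did not pass. In 5 of the 6 genes every dox array lay above every water array, as in 7.25% of all genes. The plot of intensity by array shows the values behind these counts.

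**Figure D1:**
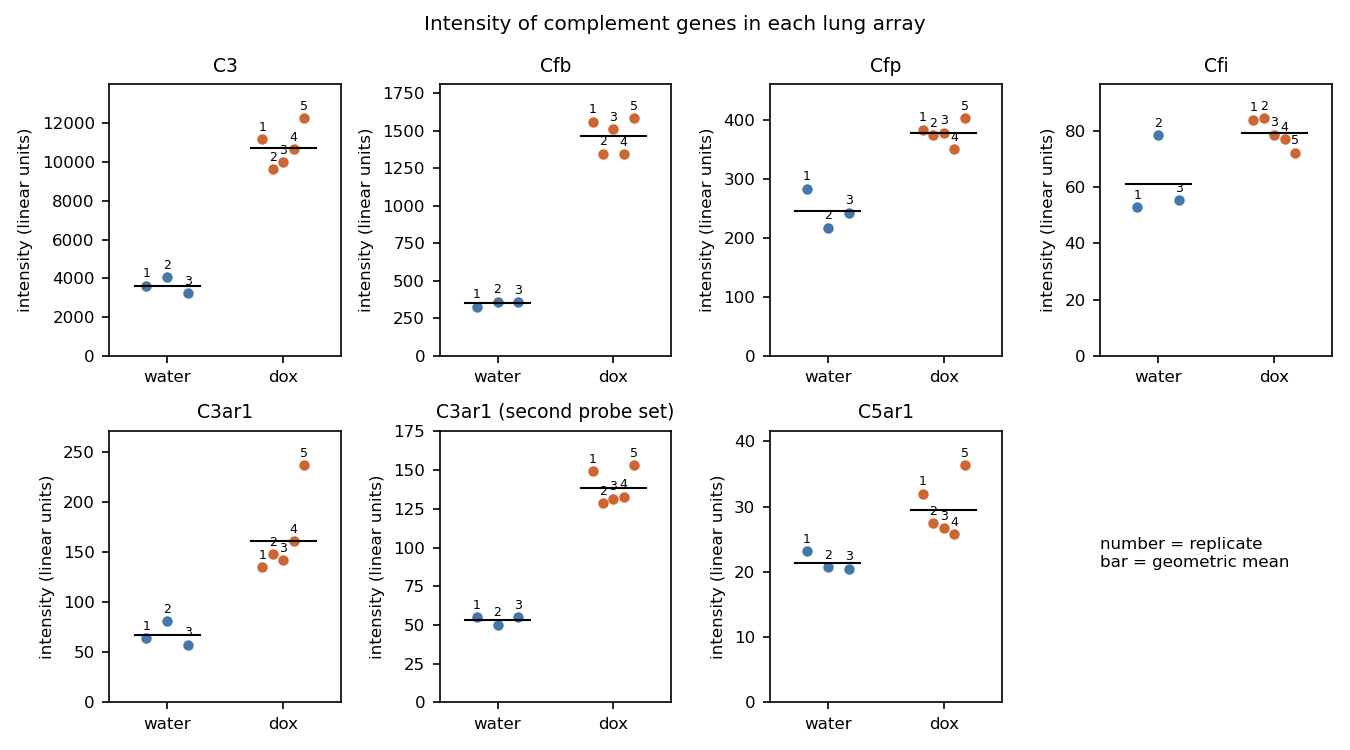
Each panel plots the linear intensity of 1 probe set (y axis, from 0) in the 3 water and 5 dox arrays, with the replicate number above each point and a bar at the geometric mean. C3, Cfb, Cfp, C3ar1 and C5ar1 are higher in every dox array than in any water array, whereas Cfi in water 2 (78.4) reaches the dox range.

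C3, the component on which all complement routes converge, read 3626, 4046 and 3233 units in water 1, 2 and 3. In dox 1 to 5 it read 11185, 9643, 10001, 10674 and 12248 units. The lowest dox array stood 1.25 log2 units above the highest water array. The rise was 2.96-fold (log2 change 1.57 ± 0.10 SE, 95% interval 1.35 to 1.78, n = 3 and 5, limma adjusted p = 1.11e-05), and 0.224% of genes had a larger log2 change.

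Cfb, which supplies the protease of the alternative convertase, gave the clearest separation. Its water values were 329, 362 and 359 units, and its dox values were 1559, 1345.5, 1509, 1344 and 1581 units. Cfb rose 4.19-fold (log2 change 2.07 ± 0.08 SE, 95% interval 1.89 to 2.24, limma adjusted p = 2.71e-07), with a gap of 1.89 log2 units between the nearest arrays of the groups. Of the 27200 genes it ranked 34 by log2 change and 7 by p. Its spread was small in both groups, with a log2 SD of 0.08 in water and 0.11 in dox.

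Cfp encodes properdin, the positive regulator of the pathway, which neutrophils, monocytes and other leukocytes make. Properdin transcript stood at 284, 217 and 243 units in water, and at 384, 375, 379, 350.5 and 403 units in dox. The groups did not overlap, but their nearest arrays, water 1 and dox 4, were only 0.30 log2 units apart. Cfp rose 1.53-fold (log2 change 0.62 ± 0.09 SE, limma adjusted p = 0.00251). It passed in each of the 8 fits that left out 1 array, with log2 changes from 0.52 to 0.72.

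Cfi, the protease that inactivates C3b and C4b, had water values of 52.8, 78.4 and 55.3 units. Its dox values were 83.9, 84.3, 78.5, 77.0 and 72.1 units. Water 2 lay above dox 4 and dox 5 and within 0.1 unit of dox 3, so the groups overlapped. The log2 change was 0.37 ± 0.12 SE (1.29-fold, 95% interval 1.07 to 1.56) and did not pass (limma adjusted p = 0.122). That call depended on a single array: without water 2 the log2 change was 0.55 and the adjusted p 0.00759.

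C3ar1, the receptor for C3a, rose on both of its probe sets. On the brighter one it read 64.2, 80.9 and 57.7 units in water and 135, 148, 142, 161 and 237 units in dox, where dox 5 stood above the other dox arrays. This was a 2.41-fold rise (log2 change 1.27 ± 0.18 SE, limma adjusted p = 0.00199), and without dox 5 the log2 change was 1.13 (adjusted p = 0.0006). On the second probe set the values were 55.1, 50.2 and 55.1 units in water and 149, 129, 132, 133 and 153 units in dox. There dox 5 was close to dox 1, the log2 SD in dox was 0.12 in place of 0.33, and the rise was 2.60-fold (log2 change 1.38 ± 0.08 SE, adjusted p = 8.55e-06 over all 43681 probe sets, of which 2.31% rose).

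C5ar1, the main receptor for C5a on neutrophils and macrophages, was dim and changed little. Its water values were 23.2, 20.7 and 20.5 units and its dox values 32.0, 27.5, 26.7, 25.8 and 36.4 units, above the lower quartile of probe sets but below the array medians. The nearest arrays of the groups, water 1 and dox 4, were 0.15 log2 units apart. C5ar1 rose 1.37-fold (log2 change 0.46 ± 0.11 SE, 95% interval 0.21 to 0.71, limma adjusted p = 0.0452). Leaving out any 1 array except dox 4 ended the call, with adjusted p from 0.0507 to 0.135, and without dox 4 it held (0.0362). The call was also lost with array weights (0.45, adjusted p = 0.0585), with every probe set tested on its own (0.46, 0.0586) and with 16 units added to each intensity before log2 (0.28, 0.0599).

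**Figure D2:**
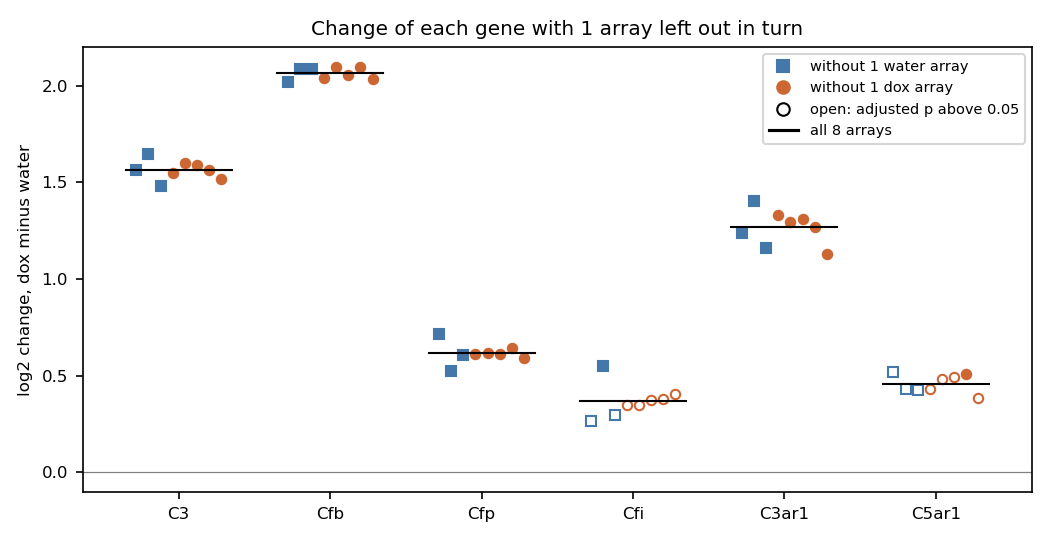
The y axis gives the log2 change (dox minus water) of each gene with all 8 arrays (black line) and with 1 water array (squares) or 1 dox array (circles) left out. Open symbols have an adjusted p above 0.05: C3, Cfb, Cfp and C3ar1 stay filled throughout, whereas Cfi is filled only without water 2 and C5ar1 only without dox 4.

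Across the dox arrays, dox 5 held the highest value of C3, Cfb, Cfp, C3ar1 and C5ar1 and the lowest of Cfi. Dox 4 held the lowest value of Cfb, Cfp and C5ar1. The highest dox array exceeded the lowest by 1.15-fold for Cfp, 1.17-fold for Cfi, 1.18-fold for Cfb, 1.27-fold for C3, 1.41-fold for C5ar1 and 1.75-fold for C3ar1. In water, the corresponding ratio was widest for Cfi (1.49-fold) and narrowest for Cfb (1.10-fold).

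Whether the genes changed by unequal amounts was asked with the log2 ratio of 2 genes within each array, for all 15 pairs. The ratios of 10 pairs did not overlap between the groups, a count given without the share among pairs of other genes. Each of these 10 had an exact permutation p of 0.0357 (2-sided, 3 against 5 arrays), the smallest that this design allows. Adjusted over the 15 pairs this became 0.0536, so 0 pairs passed at 0.05. With the mean of both C3ar1 probe sets 12 passed (adjusted p = 0.0446), and 12 with 16 units added to each intensity. For a pair at the smallest p, passing depended on how many pairs reached that p. The Cfb over C3 change was 0.50 with and without that mean, yet its adjusted permutation p went from 0.0536 to 0.0446. The number passing therefore does not rate any single pair.

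For Cfb the ratio to each of the other 5 genes was higher in dox, with no overlap. Its ratio to C3 was 0.50 ± 0.10 SE log2 units higher in dox, its ratio to C3ar1 0.80 ± 0.21, to Cfp 1.45 ± 0.12, to C5ar1 1.61 ± 0.11 and to Cfi 1.70 ± 0.15. C3 over its inactivator Cfi was 1.20 ± 0.15 higher in dox. Between the receptors, C3ar1 over C5ar1 was 0.81 ± 0.19 higher. In 5 pairs the ratios overlapped between the groups, and the calls of the first 3 of these changed with the setting. C3 over C3ar1 (0.30 ± 0.15, exact permutation p = 0.107, adjusted 0.134) passed with the mean of both C3ar1 probe sets (0.24 ± 0.07) and with the added 16 units (0.47). C3ar1 over Cfp (0.65 ± 0.24, exact permutation p = 0.0714, adjusted 0.0974) passed with that mean (0.71) but not with the added units (0.51, adjusted 0.124). Cfp over C5ar1 (0.16 ± 0.10, adjusted 0.206) passed with the added units (0.30), and ratios to the dim C5ar1 signal depend on such an offset. Cfp over Cfi (0.25 ± 0.22, adjusted 0.421) and C5ar1 over Cfi (0.09 ± 0.22, adjusted 0.714) passed under neither setting.

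**Figure D3:**
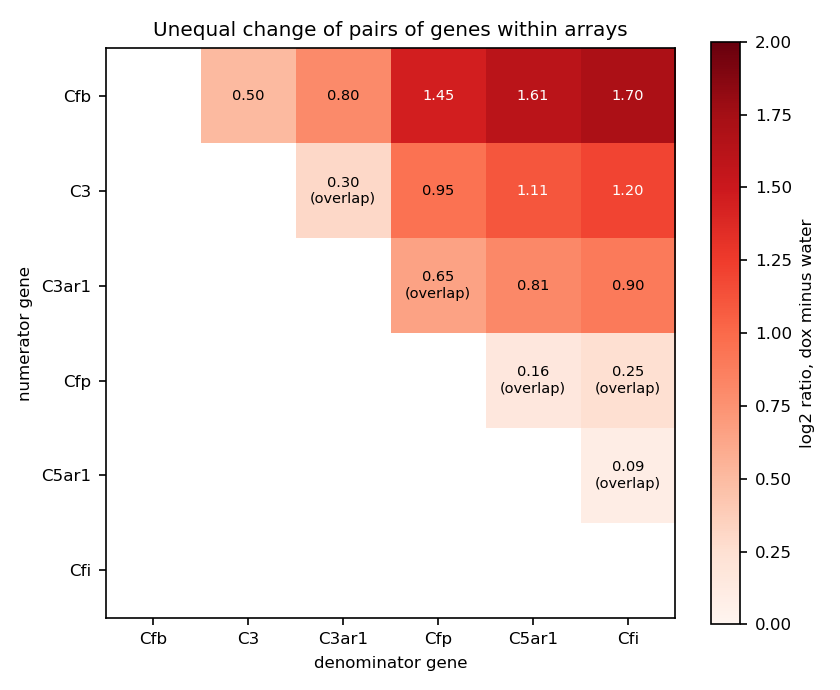
Each cell gives the log2 ratio of the row gene over the column gene in dox minus water, also shown as colour, for the 15 pairs of genes. Cells marked as overlapping are pairs whose array ratios overlap between the groups: the Cfb row reaches 1.70, while the cells among Cfp, C5ar1 and Cfi stay at or below 0.25.

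Other complement genes were read from 7 fixed lists, also chosen with earlier results of these data known. Of 43 measured genes in them, 12 rose and 1 fell, beside 3.48% and 1.52% of all genes. The median log2 change of the 43 was 0.04, beside -0.03 over all genes. Several of them belong to leukocytes or to other branches of the cascade, and the rises were unevenly spread over the lists.

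Of the alternative branch, 1 further gene was read. Cfd, the protease that activates factor B and an abundant adipocyte product, had water values of 906, 1321 and 1046 units. Dox values were 395, 345.5, 264, 1193 and 222 units, so that 4 dox arrays lay below all water arrays and dox 4 within them. The log2 change of -1.45 ± 0.44 SE did not pass (limma adjusted p = 0.0966) but did without dox 4 (-1.85, adjusted p = 0.000674). The adipocyte hormone gene Adipoq was again high in dox 4, with 241, 262 and 187 units in water and 62.9, 55.1, 46.5, 219.5 and 29.4 units in dox. The 6 adipocyte markers summed to 661 to 789 units in water and to 355 to 765 in dox, 1 of them rose (Pparg, log2 change 0.37, which macrophages also express) and 0 fell in limma, although 5 of the 6 had an unadjusted p under 0.05. The brightest, Fabp4, had a log2 change of -1.05 (adjusted p = 0.109), and the part of adipose tissue in the Cfd values was not tested. In bulk lung, fewer cells of a type and less RNA per cell cannot be told apart.

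All 6 measured genes of the 8 listed for the classical branch rose. The C1q chains C1qa, C1qb and C1qc, made by macrophages, had log2 changes of 1.93, 2.03 and 2.01, the proteases C1ra and C2 of 0.67 and 0.53, and C4b, whose probes can also bind the near-identical C4a, of 0.72 (0.47 with the mean of its probe sets). In the lectin branch 1 of 8 rose, the ficolin Fcna (0.49, adjusted p = 0.0188), which no longer passed once water 2 (0.0777) or water 3 (0.0724) was removed. Of the 7 terminal components only C6, a part of the membrane attack complex, rose (0.58 ± 0.07 SE, limma adjusted p = 0.000693). With the mean of its probe sets, the log2 change of C6 was 0.48. Hc, which encodes C5, the precursor of the C5ar1 ligand, changed by -0.32 ± 0.09 SE log2 units, short of the threshold (adjusted p = 0.0749), although its groups did not overlap (1545 to 1682 units in water, 1113 to 1413 in dox). It passed with limma's trend and robust prior (0.0252), and its adjusted p was 0.0539 to 0.307 under the other alternatives.

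Among 7 soluble regulators, clusterin (Clu), which blocks assembly of the membrane attack complex, rose by 0.70 ± 0.13 SE (adjusted p = 0.00959). Vitronectin (Vtn), which acts at the same step, fell by 0.45 on the log2 scale (adjusted p = 0.0387), but among the fits with 1 array removed it passed only without water 3 or dox 4, and the adjusted p otherwise reached 0.108. With every probe set tested on its own it was 0.0507. Of 6 membrane regulators 0 passed limma, and 0 had an unadjusted p under 0.05. Cd55b had the smallest p (log2 change 0.18, adjusted p = 0.373, both means under 15 units), and Cd55, the decay-accelerating factor, changed by 0.07 ± 0.11 SE (95% interval -0.18 to 0.32).

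Of 8 other receptors, 3 rose: the integrin subunits Itgam (1.01 ± 0.16 SE), Itgax (0.76 ± 0.07 SE) and Itgb2 (0.54 ± 0.09 SE), which pair into the complement receptors for inactivated C3b on myeloid cells. With the mean of its probe sets, the log2 change of Itgam was 0.79. C5ar2, the second C5a receptor, changed by 0.33 ± 0.11 SE log2 units, short of the threshold (adjusted p = 0.125).

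**Figure D4:**
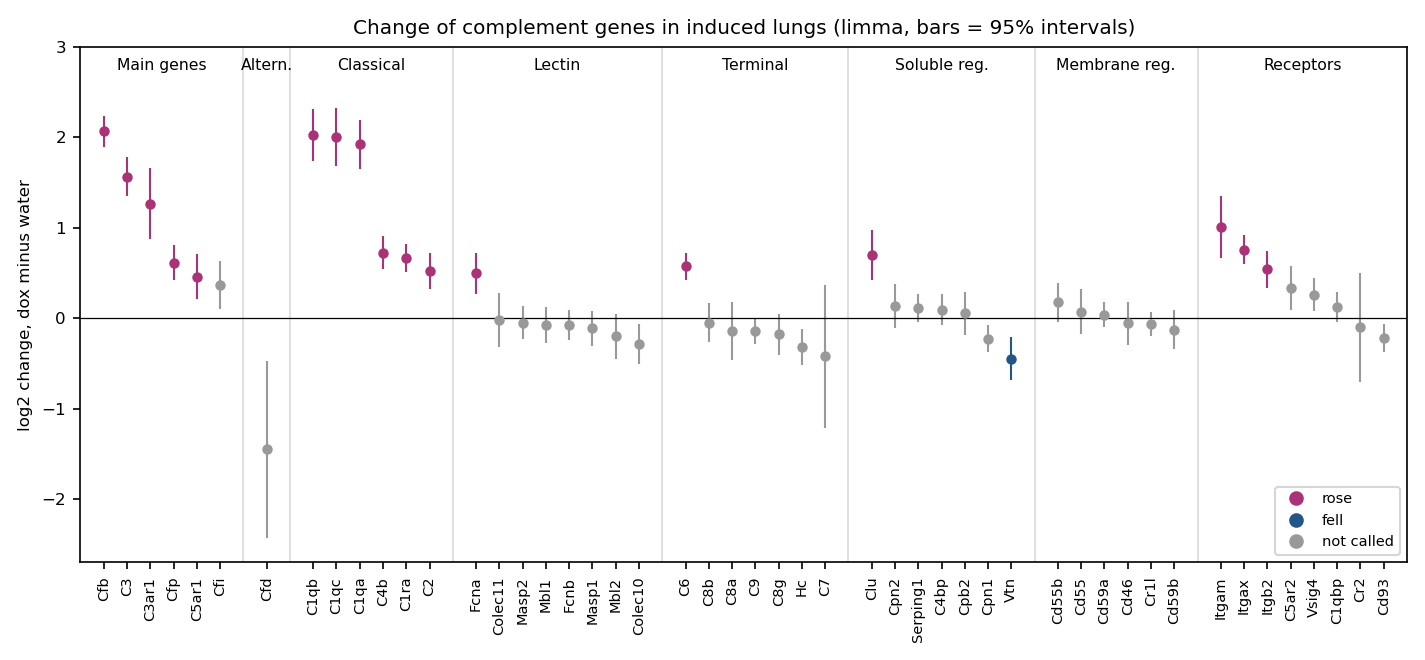
Log2 change (dox minus water) of the 6 genes and the 43 other complement genes read, each with its 95% interval from limma, grouped by role, with colour for the call at an adjusted p of 0.05. All 6 classical genes lie above 0.5, the 6 membrane regulators lie near 0, and Cfd has a wide interval around -1.45.

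Most macrophage and neutrophil markers also rose in dox. Of 10 macrophage and monocyte markers, 8 rose and 0 fell, with Cd14 at 2.40, and their summed level ran from 22223 to 22535 units in water and from 26376 to 28984 in dox, mostly Lyz2, which did not pass (0.12, adjusted p = 0.297). Of 10 neutrophil markers, 7 rose and 0 fell, with Mmp8 at 2.35 and the abundant S100a8 at 1.19, and the sum ran from 2549 to 5143 units in water and from 5451 to 10360 in dox. Within dox the neutrophil sum was highest in dox 3 and lowest in dox 1. The macrophage sum was highest in dox 2 and lowest in dox 4. Of the markers named here, Cd14 and Mmp8 were highest in dox 5, S100a8 in dox 3 and Lyz2 in dox 1. Dox 5 was also highest for 5 of the 6 complement genes. None of these markers was at 0, and their part in the rises of the 5 complement genes was not tested.

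Markers of resident lung cells moved less. Of 8 alveolar type 2 markers, 3 rose and 0 fell, with Lamp3 at 0.40 and Sftpc at -0.01, and the sum ran from 76969 to 80840 units in water and from 83067 to 86279 in dox. Of 6 club, 6 alveolar type 1 and 6 endothelial markers 0 passed limma after adjustment, while 2, 3 and 5 of them had an unadjusted p under 0.05, with Cyp2f2 at -0.25, Ager at -0.19, Emp2 at -0.22, Kdr at -0.30 and Cldn5 at -0.24. Of 6 fibroblast markers 1 fell (Tcf21, -0.44, adjusted p = 0.0493), while Col3a1 had 0.28. In the B cell and T cell lists 0 of 6 and 0 of 5 passed limma, and 0 had an unadjusted p under 0.05, with Ms4a1 at -0.68, Cd3d at -0.02 and Cd4 at 0.18. Of 7 mast cell and eosinophil markers 1 rose (Siglecf, 0.47, also carried by alveolar macrophages), while the brightest, Kit, had -0.07. The part of any of these cells in the C3 and Cfb values was not tested.

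For each of the 6 genes, the closest profiles among 13600 genes brighter than the median gene were found by the root mean square difference of log2 values, each less its water mean, over the 8 arrays. C3 was nearest to Nfkbiz (0.12) and Hhip (0.12), and Cfb to Noxo1 (0.11) and C1qb (0.13). Cfp was nearest to Cytip (0.07) and Laptm5 (0.08), and Cfi to Zfp207 (0.08) and Pkhd1l1 (0.08). The receptor C3ar1 was nearest to Serpina3n (0.20) and Cp (0.20), and C5ar1 to B3gnt7 (0.08) and Il18bp (0.09). The 2 groups dominate such distances, so near profiles mainly share the size of the change.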

How the data were processed

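The authors deposited linear intensities, which RMA (version not stated) produced per the submitters' processing notes. RMA equalises arrays, so a change in total RNA cannot be seen. Gene symbols came from the deposited text table; 8 value columns in it could not be matched to samples by name and stayed unused. Symbols were updated with RefSeq names (GRCm38.p6), and each gene was represented by its brightest probe set (mean over all arrays).

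Values were taken to log2 and tested with limma 3.58.1 in R 4.3.3 (lmFit, eBayes, 2-sided) over all 27200 genes, with Benjamini-Hochberg adjustment. "Rose" and "fell" mean an adjusted p of at most 0.05. Group means are geometric. Pairs were tested with scipy 1.17.1. The computation was tested on simulated data, with 50 genes changed at each size. Limma found 78% of the 1.5-fold changes and at least 94% of the larger ones. Of its 201 calls, 16 were unchanged genes. The members and lists were chosen with earlier results of these data known. The text names the 6 genes and, per complement list, the genes past the threshold or that with the smallest p, per cell type list the gene with the smallest p and the brightest, and for each of the 6 genes the 2 nearest profiles; Hc, C5ar2, Cd55, Adipoq and Alb were added after their values were seen. The results of 3 further listed genes are not reported here. Alternatives were another prior, array weights, 2 scalings, a filter on dim genes, both treatments of probe sets, an offset of 16, a replicate block and fits without single arrays.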

Additional observations from a re-analysis of the deposited data

Results flagged for a closer look

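Among the 5 dox arrays, C2, the serine protease of the classical convertase and a relative of Cfb, had 1 distant value: dox 1 read 273 units, and the next highest array 227. The gap took up 0.796 of the whole range of the dox arrays. Such a gap was looked for in 22 probe sets, and chance alone marks about 1 in 20. C2 passed the limma threshold in each of the 8 fits that left out 1 array.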

How the results depend on the processing

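C3, Cfb, Cfp and C3ar1 rose under all 17 alternatives, with log2 changes of 1.48 to 1.65, 2.02 to 2.10, 0.52 to 0.72 and 1.08 to 1.40. C5ar1 kept its direction but lost its call with array weights (0.45, adjusted p = 0.0585), every probe set on its own (0.46, 0.0586), an offset of 16 (0.28, 0.0599) and the replicate block (0.42, 0.0603), and its log2 change ran from 0.38 to 0.52 as arrays were left out; for Cfi that range was 0.26 to 0.55. The cause was not tested. Replicate numbers did not pair the samples: deviations of water and dox arrays of the same number correlated with r of 0.007, 0.062 and -0.161. With the replicate block, 606 genes were called, 505 higher and 101 lower, against 1359, 946 and 413. Replicates 4 and 5 exist only in dox, so dox 4 and dox 5 did not inform the dox change in the block fit. Its results therefore reflect the loss of these arrays as well as the pairing. The block fit also ended the calls of C2 (adjusted p = 0.0562) and Vtn (0.134) and gave one for Cfd (-1.71, 0.00403). Leaving out arrays gave 893 to 1290 genes (893 without water 2), with 661 to 880 higher and 211 to 410 lower, and the lower genes numbered 664 with the trend and robust prior and 635 with the offset. The genes among the 6 that rose numbered 4 or 5, and the other complement genes that rose 11 or 12. Other complement genes that fell numbered 3 with that prior, 0 with every probe set on its own and 0 to 2 as arrays were left out. Pairs past the threshold numbered 12 with the mean of probe sets and 12 with the offset, and 0 (lowest and highest) without 1 array, where none could pass, since the smallest exact permutation p is then 0.0571 (without a dox array) or 0.0952 (without a water array). C5ar1 over Cfi turned to -0.015 with the offset and ran from -0.12 to 0.25 as arrays were left out, and Cfp over Cfi from -0.025 to 0.45. Background was not measured here, so how far the dim signal of C5ar1 exceeds it is not known.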
